A study of Sus scrofa with 8 samples.

Results

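The genes examined here encode the proteins of the cytoplasmic ribosome. They were chosen by name alone: every gene symbol made of RPS or RPL and a number, with an optional closing letter, or RPLP0 to RPLP2, which left out the RPS6K kinases. Of the 21301 genes in the files, 55 met this rule, 23 of the small subunit and 32 of the large subunit. Of the 55, 50 are components of the standard ribosome, and the other 5 (RPL3L, RPL7L1, RPL10L, RPL26L1 and RPS27L) are paralogues of such a component. RPL10L had no UMI in any library, which left 54 genes with counts.

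Single-cell RNA sequencing was done on the somites of pig embryos at embryonic day (E) 16, E18 and E21 and on the myotome, the muscle-forming layer of the somite, at E28. Each of the 8 libraries came from 1 pool of 5 embryos of 1 sow, either Tibetan pigs (ZZ) or offspring of a Duroc by Tibetan cross (DZ), with no other treatment, so each combination of stage and breed was measured once. The E16 matrices were written by Cell Ranger 3.1.0 and all others by 3.0.2, and only E28 was myotome, so the software version and E16, and the tissue and E28, cannot be told apart. UMIs are molecular tags, so that each counted UMI stands for 1 captured RNA molecule. Where 2 values are given for a stage, ZZ comes before DZ. The kit reads the 3′ end of an RNA, so a count does not grow with the length of the gene.

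After the filters 74147 cells of 90688 barcodes were kept, with 39852689 to 57564889 UMIs per library. In E16-ZZ 39.2% of the barcodes exceeded the limit on mitochondrial RNA, against 1.05% to 9.15% in the other libraries. Pairs of libraries shared 13 to 38 cell barcodes. Cells were assigned to 14 gates, named "-like" because they rest on markers: a cell entered a gate with at least 3 of its marker genes detected and more than of any other gate, which placed 40.8% of the cells. Of the 107 marker genes, 12 had no symbol in the files. No ribosomal protein gene was a marker. No single marker was required, also not the one in a gate's name. The MYF5+ progenitor-like gate rested on MYF5, PAX7, MSC, MYOD1 and CDH15. The PAX3+ dermomyotome-like gate rested on PAX3, MEOX1, TCF15, DMRT2, ALDH1A2 and FOXC2.

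Ribosomal proteins and ribosomal RNA together form the small subunit, which reads the mRNA, and the large subunit, which joins the amino acids. The proteins are needed in matched amounts, and their mRNAs are among the most abundant of a growing cell. Most of these mRNAs begin with a C followed by a run of pyrimidines (C or T), the 5′ terminal oligopyrimidine (TOP) tract, through which mTOR signalling and LARP1 adjust their translation and stability.

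The tract was looked for at the annotated starts of the transcripts. In Sscrofa11.1, with RefSeq transcripts, the first bases were a C followed by at least 4 pyrimidines in 16 of 54 members with a single locus (29.6%) and in 3.23% of 11839 other genes tested for expression. Such a run anywhere from 5 bases before the start to the end of the window was found in 26 of the 54 members and in 2950 of the other genes, a smaller contrast. The window was 30 bases, 15 on each side of the annotated start of 1 transcript per gene, read on the transcript's strand only. RefSeq starts can miss the used start, so a missing tract says only that these letters do not follow this start. The 4 members with the tract shown first are RPL10 (chrX:124927234-124927263, plus strand), RPL7 (chr4:62602415-62602444, plus), RPS20 (chr4:75762194-75762223, plus) and RPL34 (chr8:113471985-113472014, minus). RPS2 (chr3:39996164-39996193, plus) and RPS4X (chrX:58155165-58155194, minus) are shown because they fell from E18 to E21, as given below. The RPS2 model had no tract at the start. The annotated start of RPS4X lies inside a longer run of pyrimidines but its first base is T, so it did not meet the rule. The tract is in capitals.
RPL10: caggcgtgggagcgcCTCTTTTCCTTCggc
RPL7: cgcatgcgctaacttCCTCTTTCCCggctg
RPS20: aggcctcacgccttcCTCTTTgaagaagac
RPL34: gagaccttccctttcCTCTTCCggggacgg
RPS2: ttgtcgggaagcggaaggagccagaggcgt
RPS4X: ccgcggaccttcttttctccgcgcgccgga

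These genes held a large and similar part of all UMIs at every stage. The share was 20.1% and 20.3% at E16 and 18.4% and 18.96% at E18. It was 17.8% and 21.0% (E21), then 19.9% and 18.7% (E28). The early libraries (E16, E18) and the late ones (E21, E28) overlapped, and both the highest and the lowest value were from E21. The mean was 19.5% ± 0.896 (SD, n = 4) early and 19.3% ± 1.41 (SD, n = 4) late, and late minus early was -0.110 percentage points (exact two-sided permutation test over libraries, p = 0.886), a sign that turned without E16-ZZ (0.107), E16-DZ (0.174), E21-ZZ (0.409) or E28-DZ (0.116). DZ minus ZZ was 0.203 percentage points at E16, 0.520 at E18, 3.23 at E21 and -1.23 at E28, with no common direction (mean 0.681, exact two-sided sign-flip permutation test, p = 0.625, smallest possible p 0.125).

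The level differed much between members and little between libraries. The 50 components averaged 825 CPM or more (UMIs of a gene scaled to the same standard total in every library), and 47 of them were at 1000 or above. Among the most abundant were RPS2 (7405 CPM), RPL10 (7333), RPS12 (7077) and RPS15 (6729). The lowest with any UMI were RPL38 and the paralogues RPS27L (243), RPL7L1 (201), RPL26L1 (112) and RPL3L (0.957 CPM). For 39 of 54 members the highest library was less than 1.5 times the lowest. Levels of different members also depend on how many reads map to 1 gene only, since these genes have many near-identical copies in the genome, so only the same gene is compared between libraries below.

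**Figure D1:**
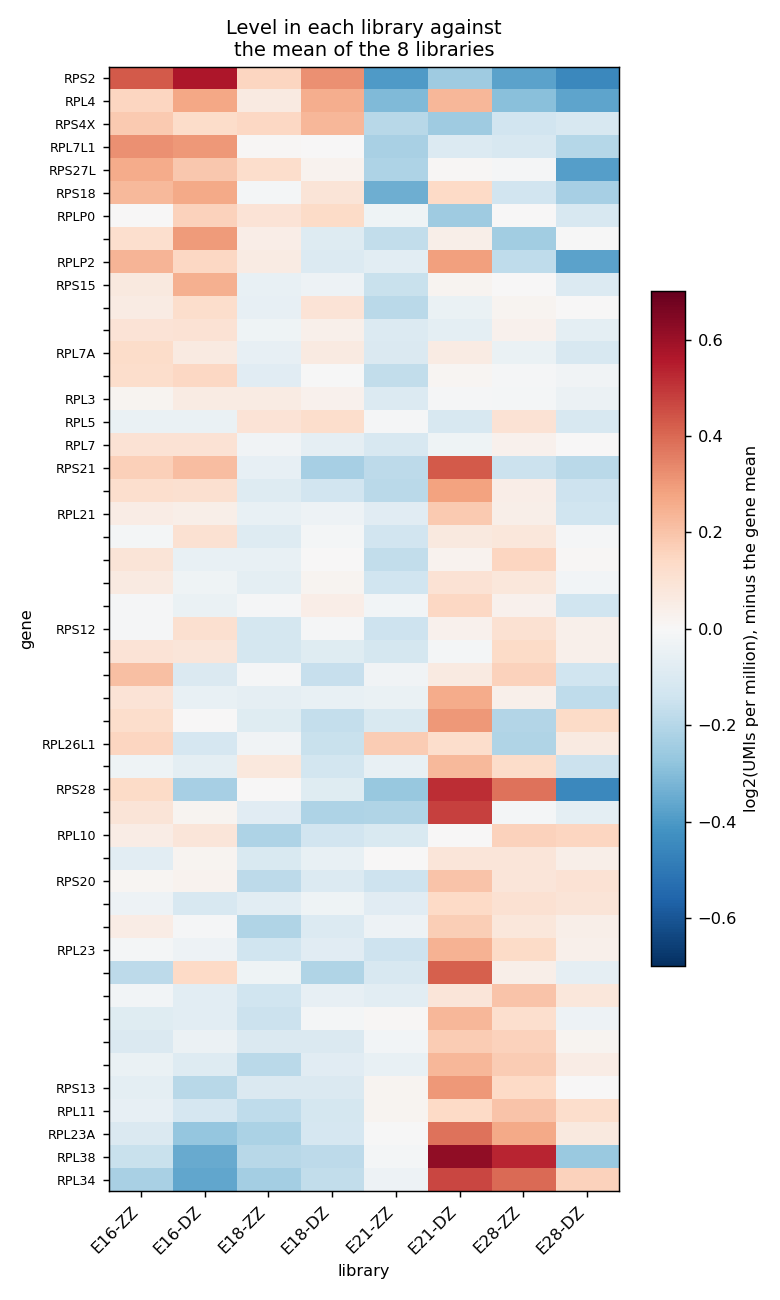
The level of members with at least 1000 UMIs in all, the ones named in the text labelled, as log2 of CPM minus the gene's mean over the 8 libraries. Rows are ordered by late minus early, from RPS2 (high at E16 and E18, low at E21 and E28) to RPL34 (the reverse), and E21-DZ is above the mean for most rows.

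RPS2, a small-subunit protein close to where mRNA enters the ribosome, varied most among the abundant members. It was at 9622 and 10592 CPM at E16 and at 7924 and 8927 at E18. It was at 5427 and 6015 at E21 and at 5502 and 5231 at E28. Every late library was below every early library. RPS4X, the X-linked small-subunit protein, showed the same order at a lower level: 3121 and 3000 at E16 and 3038 and 3230 at E18, against 2406 and 2315 (E21), then 2506 and 2542 (E28). The small-subunit members together had 0.941 to 0.988 UMIs for each UMI of the large subunit in the early libraries and 0.876 to 0.926 in the late ones. Without RPS2 these ranges were 0.852 to 0.884 and 0.824 to 0.871, and they overlapped.

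Between neighbouring stages few members changed. A whole library sums over all its cells, so a change in the mixture of cells and a change within cells cannot be told apart in these tests, which used edgeR's quasi-likelihood test with Benjamini-Hochberg adjustment over 15119 genes, 1 model of stage and breed, and a threshold of 0.05. Replicates of a stage were the 2 breeds, so the p-values measure the spread between these pools.

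From E16 to E18 no member rose or fell, where 2.04% of all genes tested rose and 2.67% fell. On the TMM scale of the test (trimmed-mean library factors), all 54 log2 fold changes were below 0 (median -0.26, against 0.02 for all genes), 53 of them in both breeds, 5 had an unadjusted p under 0.05, and DESeq2 called 4 lower. How many members were lower, and by how much, depended on the scaling. In plain CPM, the scale of the levels above, 41 of 54 members were lower by the mean of the breeds (median log2 ratio -0.09) and 34 were lower in both, and RPS4X was higher at E18 in DZ. Scaled to the members' own UMIs, which sets their median near 0 by construction, it was 0.02. Without E21-ZZ the count was 3 and without E21-DZ it was 1. RPS21, of the small subunit, was among the lowest values (-0.50 ± 0.24 SE, adjusted p = 0.242).

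From E18 to E21, the largest change of stage over all genes (10.7% rose and 10.4% fell), 2 of 54 members fell and none rose. RPS2 fell by 0.64 on the log2 scale (± 0.16 SE, adjusted p = 0.0355) and RPS4X fell by 0.50 (± 0.13, adjusted p = 0.0388), each in both breeds. The median of the members was 0.01, as for all genes, but it was 0.19 without E21-ZZ and -0.27 without E21-DZ. Each of both calls was lost in 6 of 16 alternative settings, with adjusted p up to 0.242 for RPS2 and 0.276 for RPS4X. No member was called without E16-ZZ, E16-DZ, E18-ZZ or E18-DZ, and without E21-ZZ none fell and 4 rose. RPL23A was above 0 in both breeds (0.29 ± 0.21, adjusted p = 0.363) and did not pass the test.

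The genes that build ribosomes were lower at the same step. In whole libraries the counts over the gene lists of this paragraph are given for this step only, with values of single genes at the other steps. Of 31 tested genes of ribosome biogenesis, 24 fell from E18 to E21 and none rose (median -0.66, against 0.01 for all genes, of which 10.4% fell). They included NPM1 and NCL, the abundant nucleolar proteins (-0.77 ± 0.17, adjusted p = 0.0230, and -0.74 ± 0.12, adjusted p = 0.00836), FBL, which methylates ribosomal RNA (-0.76 ± 0.14, adjusted p = 0.0149), and TSR1, which acts in maturation of the small subunit (-1.11 ± 0.13, adjusted p = 0.00380). From E16 to E18 NPM1, NCL, FBL and TSR1 were at -0.40, -0.14, -0.37 and -0.34, and none of them passed. EBNA1BP2 (-0.66, adjusted p = 0.0256) and MRTO4 (-0.56, adjusted p = 0.0432) of the same list fell there, and UBTF was above 0 (0.32, adjusted p = 0.105). From E21 to E28 NPM1, NCL, FBL and TSR1 were at 0.09, 0.07, -0.21 and 0.02 and did not pass. Of 68 mitochondrial ribosomal protein genes 21 fell and none rose (median -0.27). Of 11 growth regulators MYCN, a transcription factor that promotes growth, fell by 1.24 (± 0.25, adjusted p = 0.0176) and EIF4EBP1, a translation repressor under mTOR, fell by 0.83 (± 0.18, adjusted p = 0.0209). MYCN was at 0.60 from E16 to E18 (adjusted p = 0.177) and fell again from E21 to E28 (-1.15 ± 0.25, adjusted p = 0.0401). MYC was not called from E18 to E21 (0.11, adjusted p = 0.782). It fell from E16 to E18 (-1.60 ± 0.24, adjusted p = 0.0259) and rose from E21 to E28 (1.38 ± 0.24, adjusted p = 0.0222). None of the 17 translation factors and other TOP genes passed the test (median -0.15).

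From E21 to E28 no member passed the test, where 4.32% of all genes rose and 4.23% fell. None had an unadjusted p under 0.05, DESeq2 called none, and without E21-ZZ 2 fell. The median was -0.03 (-0.24 without E21-ZZ and 0.19 without E21-DZ), and RPL10, a late-joining protein of the large subunit, was the highest (0.19 ± 0.15, adjusted p = 0.474).

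Between DZ and ZZ no member passed the test, and neither did any other gene (0% rose and 0% fell of 15119). None of the members had an unadjusted p under 0.05, against 917 of all genes, DESeq2 called no member, and no member kept 1 direction at all 4 stages.

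Within single stages the DZ and the ZZ library nevertheless differed, in opposite directions at E21 and E28. With 1 library of each breed at a stage, breed and pool cannot be told apart there. At E21 49 of 53 members were higher in DZ than in ZZ (median log2 ratio 0.21) and at E28 6 of 53 were (median -0.10). At E16 it was 23 of 53 (median -0.01) and at E18 38 of 53 (median 0.05). RPS28 was at 1445 and 1125 CPM at E16, 1324 and 1242 (E18), 1097 and 1889 (E21), then 1718 and 964 (E28). RPL38 was at 793 and 1229 at E21 and at 1159 and 669 at E28. They have the shortest coding sequences of the members, 210 and 213 bases. Across the 52 members with a coding length, log2 length and the log2 ratio of DZ over ZZ had Pearson's r of -0.576 at E21 (Spearman's rho -0.584), 0.501 at E28 (0.410), 0.459 at E18 (0.426) and 0.270 at E16 (0.270). Each is 1 library against 1 library, and the members share those libraries and their depth, so these values have no replicate check. The 10 shortest members had a median log2 ratio of 0.518 at E21, against 0.192 for the others, and -0.197 at E28, against -0.0982.

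**Figure D2:**
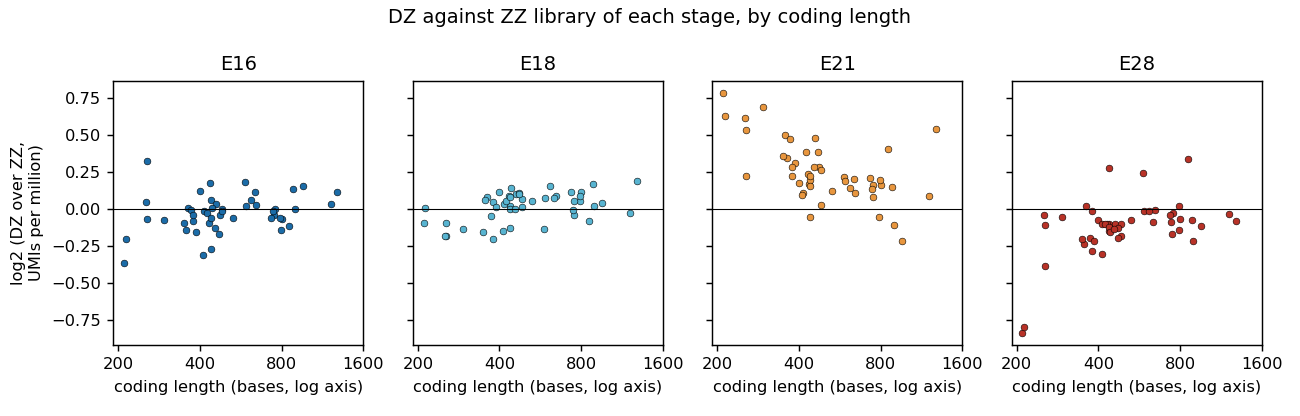
Each point is 1 of the members plotted, by the length of its coding sequence (bases, log axis) and the log2 ratio of its CPM in the DZ over the ZZ library, 1 panel for each stage. Short members lie highest at E21 (RPS28, 210 bases) and lowest at E28.

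Among the gates, the median share of UMIs was lowest in blood, nerve and vessel cells, in neuron-like and endothelial-like cells mainly through the late libraries. The median over libraries ran from 21.1% in epithelial-like cells (5 libraries) through 20.2% in chondrogenic-like cells (8 libraries), 20.1% in myocyte-like cells (6), 19.8% in MYF5+ progenitor-like cells (4) and 19.5% in fibroblast-like cells (8) to 17.4% in endothelial-like (8), 15.3% in neuron-like (7), 15.3% in macrophage-like (2) and 8.66% in erythroid-like cells (8). The ranges of the 8 gates with the highest medians overlapped, from epithelial-like to neural crest and glia-like cells. Gate minus its own library was -5.17 to -13.0 percentage points for erythroid-like cells, below 0 in 8 of 8 libraries, and -0.154 to -7.48 for neuron-like cells, below 0 in 7 of 7. In the early libraries alone it was -1.12 to -0.154 for neuron-like and -1.05 to 0.360 for endothelial-like cells. Epithelial-like cells were above their library in 5 of 5 (by 1.02 to 3.96 points) and PAX3+ dermomyotome-like cells in 6 of 6 (0.207 to 1.29). MYF5+ progenitor-like cells were above it in 4 of 4, by 0.0106 to 1.84 points, the lowest of which is close to no difference. Cells of E21-DZ had the highest share of all libraries in 7 of the 10 gates that held at least 20 of them, and not in endothelial-like, neuron-like and erythroid-like cells.

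**Figure D3:**
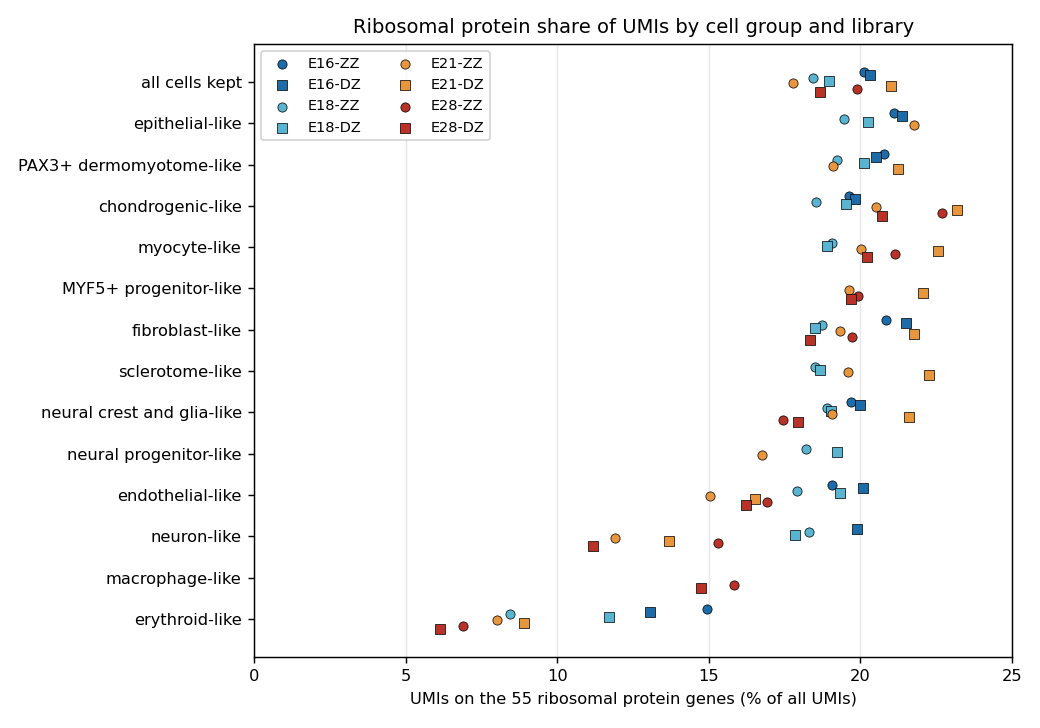
The percent of UMIs on the members in all cells kept and in each gate with at least 20 cells, 1 point for each library, coloured by stage, with circles for ZZ and squares for DZ. Erythroid-like and neuron-like cells lie lowest, and in endothelial-like, neuron-like and erythroid-like cells E21 and E28 lie lower than E16.

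Within gates, late libraries had a lower share than early ones in neuron-like and endothelial-like cells and a higher share in chondrogenic-like cells, by tests that did not pass after adjustment. In neuron-like cells it was 19.9% in E16-DZ (E16-ZZ had too few cells), 18.3% and 17.8% (E18), 11.9% and 13.7% (E21), then 15.3% and 11.2% (E28). In endothelial-like cells it was 19.1% and 20.1% at E16, 17.9% and 19.3% (E18), 15.0% and 16.5% (E21), then 16.9% and 16.2% (E28). In chondrogenic-like cells it was 19.6% and 19.8% at E16, 18.5% and 19.5% (E18), 20.5% and 23.2% (E21), then 22.7% and 20.7% (E28). In these 3 gates the early and late libraries did not overlap.

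The mean change was -5.66 percentage points in neuron-like (exact p = 0.0571, the smallest that 3 against 4 allow), -2.92 in endothelial-like (exact p = 0.0286, the smallest that 4 against 4 allow) and 2.40 in chondrogenic-like cells (exact p = 0.0286), all by two-sided permutation of libraries. In erythroid-like cells it was -4.56 (from 12.0% ± 2.74 to 7.47% ± 1.22, SD, n = 4 and 4, exact p = 0.0571), in neural crest and glia-like cells -0.390 (exact p = 0.8) and in fibroblast-like cells -0.109 (exact p = 0.914). Adjusted over the 6 gates, the first 4 values became 0.0857 (permutation), so none passed. Between gates, the change of chondrogenic-like cells exceeded that of endothelial-like cells by 5.32 points and that of erythroid-like cells by 6.96 points (exact permutation p = 0.0286 each, 0.0612 adjusted over 15 pairs), which did not pass either.

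In erythroid-like cells the hemoglobin genes with a symbol (HBB, HBE1, HBZ, HBM and HBQ1) took 30.1% to 49.4% of the UMIs in the early libraries and 51.2% to 53.2% in the late ones. Outside these genes the ribosomal protein share was 21.4% in both E16 libraries, 16.7% and 20.6% (E18), 16.8% and 18.2% (E21), then 14.4% and 13.1% (E28). The groups overlapped with and without these genes (mean change -4.38 points, exact permutation p = 0.0857, 0.129 adjusted).

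Single genes within gates were tested in the same way, late against early with breed as a term, with 53 members tested in each of the 6 gates. RPS2 was lower in all late than in all early libraries in each of the 6 gates. In neuron-like cells it was at 8064 CPM (TMM-scaled, as all gate levels here) in E16-DZ, 6306 and 6378 (E18), 2976 and 3178 (E21), then 3645 and 2655 (E28). In fibroblast-like cells it was at 11830 and 12650 at E16, 8751 and 10111 (E18), 4762 and 5609 (E21), then 4728 and 3800 (E28). Where 4 values are given for early or late libraries below, they follow the same order. It fell by 1.24 in neuron-like (± 0.19 SE, adjusted p = 0.00378), by 1.24 in fibroblast-like (± 0.19, adjusted p = 0.000898), by 1.12 in endothelial-like (± 0.13, adjusted p = 0.000429) and by 0.62 in neural crest and glia-like cells (± 0.14, adjusted p = 0.00399). These calls held in 12 of 12 alternative settings in fibroblast-like, endothelial-like and neural crest and glia-like cells, which included leaving out each library and scaling to the members' own UMIs. In neuron-like cells the call held in the same settings, but E16-ZZ was not in that fit, so leaving it out changed nothing there. In chondrogenic-like cells the value was -0.35 ± 0.12 (adjusted p = 0.0511).

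**Figure D4:**
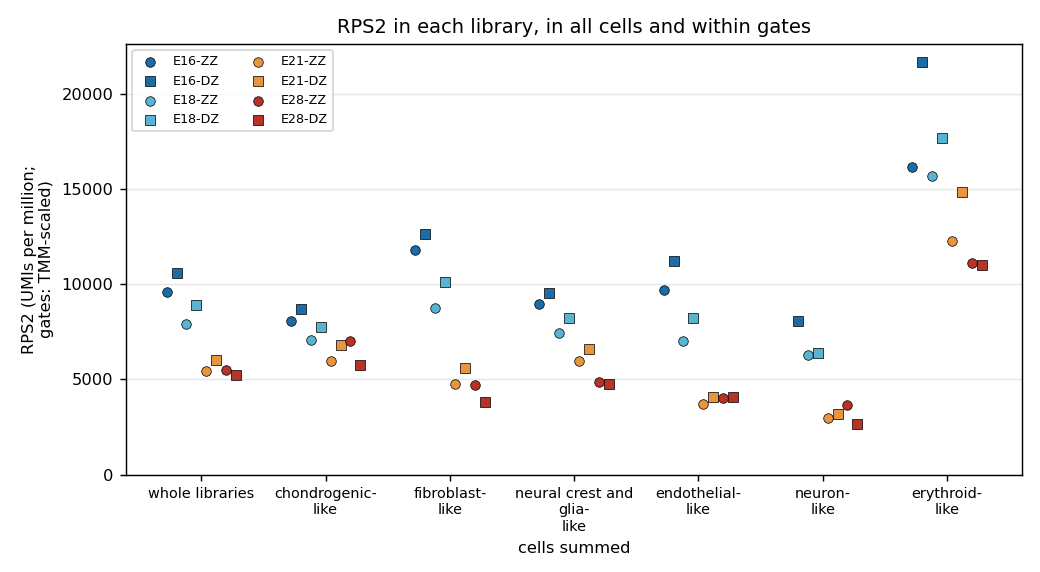
RPS2 in each library, as CPM in all cells and as TMM-scaled CPM within 6 gates. Early libraries (blue) lie above late libraries (orange and red) in every column, and erythroid-like cells range from 11015 to 21696.

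In neuron-like cells 26 of 53 members fell and none rose, where 9.56% of 9789 genes fell and 9.85% rose (median of the members -0.65, of all genes 0.03). After RPS2 came RPS4X (-1.05 ± 0.17, adjusted p = 0.00443), RPS18 at the head of the small subunit (-1.04 ± 0.22, adjusted p = 0.0128), RPL7 (-0.97 ± 0.17, adjusted p = 0.00636) and RPL3, which lies near the catalytic centre of the large subunit (-0.97 ± 0.19, adjusted p = 0.00862). RPS4X was at 2575 in E16-DZ, 2608 and 2344 (E18), 1294 and 1178 (E21), then 1587 and 1202 (E28). RPL7 was at 3842, 3694 and 3147 early and 2010, 1936, 2301 and 1649 late, and neither gene overlapped between the groups. RPL26L1, a paralogue of RPL26, was the single member above 0 (0.48 ± 0.18, adjusted p = 0.103). The count was 8 without E16-DZ, 2 without E18-ZZ, 9 without E18-DZ, 13 without E21-ZZ and 12 without E28-DZ, while the median stayed between -0.54 and -0.78. Scaled to the members' own UMIs, 2 fell and 4 rose. Late neuron-like cells carried more neuronal markers than early ones: STMN2 was detected in 96.6% against 79.3% of them and GAP43 in 81.0% against 52.9%. The part of this difference in the result was not tested.

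In endothelial-like cells 19 of 53 members fell and none rose (12.6% of 9583 genes fell and 14.2% rose). Beside RPS2 they included RPS4X (-0.55 ± 0.13, adjusted p = 0.00949), RPL7A (-0.53 ± 0.12, adjusted p = 0.00786) and RPS18 (-0.52 ± 0.13, adjusted p = 0.0166). RPS4X was at 3074, 3193, 2622 and 2899 early and 1642, 1688, 2151 and 2196 late, with no overlap. Of all 53 members 52 were below 0 in both breeds. The count was 8 without E16-ZZ, 6 without E16-DZ, 7 without E21-ZZ and 9 without E28-DZ, and scaled to the members' own UMIs 2 fell and 3 rose.

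In chondrogenic-like cells 9 of 53 members rose (17.0%) and none fell, where 12.3% of 10125 genes rose and 11.8% fell, so the share of members called was near that of all genes. RPL34, of the large subunit, was at 2674, 2368, 2497 and 2744 early and at 3672, 5238, 5101 and 3983 late. It rose by 0.76 (± 0.14 SE, adjusted p = 0.00346). RPL23A, at the exit of the peptide tunnel, was at 2436, 2060, 2259 and 2369 early and at 3184, 4295, 4047 and 3256 late. It rose by 0.65 (± 0.13, adjusted p = 0.00611), RPS13 by 0.47 (± 0.13, adjusted p = 0.0264) and RPL11, which also binds MDM2, by 0.46 (± 0.12, adjusted p = 0.0160). The late libraries were above the early ones for each of these 4. The calls of RPL34 and RPL23A held in 12 of 12 alternatives. The count was 5 without E16-ZZ, 4 without E16-DZ, 3 without E18-ZZ, 3 without E18-DZ and 19 without E28-DZ. Without E28-ZZ 4 rose and 1 fell, and scaled to the members' own UMIs 4 rose and 6 fell. The cartilage matrix gene MATN4 was detected in 95.2% of the late and 17.7% of the early cells of this gate and HAPLN1 in 22.8% and 69.8%, and the part of this in the result was not tested.

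In fibroblast-like cells 5 of 53 members fell and none rose, where 16.4% of 10794 genes fell and 15.8% rose. Beside RPS2 these included RPS4X (-0.63 ± 0.14, adjusted p = 0.00641), RPLP0, the base of the ribosomal stalk (-0.56 ± 0.14, adjusted p = 0.0120), and RPL5, a partner of 5S ribosomal RNA (-0.44 ± 0.15, adjusted p = 0.0484). RPLP0 was at 5293, 5716, 5223 and 5254 early and 4008, 3728, 4063 and 3255 late. The share of members called was below that of all genes. The count was 3 without E16-ZZ, E16-DZ, E21-ZZ or E28-ZZ and 16 without E21-DZ, and scaled to the members' own UMIs 2 fell and 10 rose. OGN was detected in 79.2% of the late and 15.6% of the early cells of this gate, and the part of this in the result was not tested.

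In neural crest and glia-like cells 4 of 53 members fell and none rose (12.6% of 7999 genes fell and 14.6% rose). They included RPS2 and 2 paralogues, RPL7L1 and RPS27L. RPL7L1, which acts in ribosome assembly, was at 310, 304, 222 and 200 early and 160, 174, 153 and 133.3 late and fell by 0.72 (± 0.18, adjusted p = 0.00818). Its partner RPL7 was not called there. RPS27L fell by 0.48 (± 0.16, adjusted p = 0.0439). The count was 14 without E21-DZ and 2 without E16-ZZ, E16-DZ, E21-ZZ, E28-ZZ or E28-DZ, and scaled to the members' own UMIs 4 fell and 4 rose.

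In erythroid-like cells no member passed the test, where 0.996% of 3915 genes rose and 0.766% fell. Unadjusted, 9 members had p under 0.05, DESeq2 called none, and 1 fell without E18-ZZ. The median was -0.12 on the TMM scale. RPS2 was at 16158, 21696, 15717 and 17711 early and 12270, 14836, 11105 and 11015 late on the TMM scale.

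**Figure D5:**
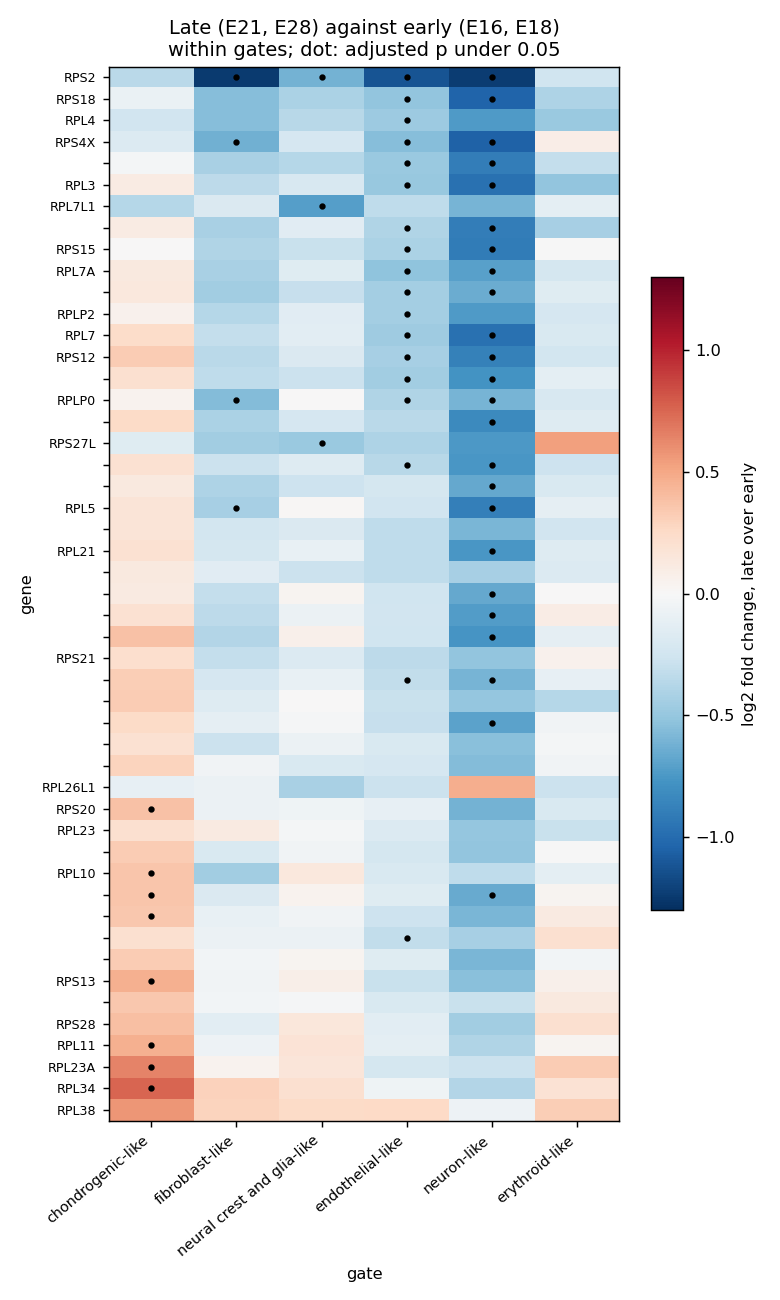
The log2 fold change of late over early libraries for members tested within 6 gates, with a dot where the adjusted p is under 0.05. RPS2 is at the top in blue in every column (-1.24 in neuron-like cells), neuron-like and endothelial-like cells are mostly blue, and RPL34 and RPL23A are red in chondrogenic-like cells.

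Genes of ribosome biogenesis were counted in the same 6 fits. In chondrogenic-like cells 21 of 31 fell (median -0.70, 11.8% of all genes fell there), in endothelial-like cells 18 (median -0.69, 12.6%), in neural crest and glia-like cells 23 (median -0.97, 12.6%), in fibroblast-like cells 10 (median -0.42, 16.4%) and in neuron-like cells 9 (median -0.49, 9.56%). In erythroid-like cells 2 of 29 fell (median -0.53, 0.766%), and none rose in any of the 6 gates. Of the mitochondrial ribosomal protein genes 17 of 68 fell in chondrogenic-like, 27 of 68 in endothelial-like, 25 of 68 in fibroblast-like, 21 of 65 in neural crest and glia-like, 12 of 66 in neuron-like and 0 of 64 in erythroid-like cells, against the same shares of all genes, and 1 rose, in neural crest and glia-like cells. Of 17 translation factors and other TOP genes, 5 rose and none fell in chondrogenic-like cells, 2 rose and 5 fell in endothelial-like, 1 rose and 1 fell in fibroblast-like, 2 rose and 3 fell in neural crest and glia-like, none rose and 8 fell in neuron-like and 2 rose and none fell in erythroid-like cells.

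Myocyte-like cells were compared with MYF5+ progenitor-like cells in the 4 libraries of E21 and E28 that held both. Levels and shares below are from these libraries. The test of single genes was 1 model of gate and library over 12361 genes with the sums of all gates and all 8 libraries, here and for the other pairs of gates, so other gates and libraries also enter its fold changes and its spread. The share of UMIs was higher in myocyte-like cells in 4 of 4 libraries, by 0.382 to 1.24 percentage points (mean 0.662, 21.0% against 20.3%, exact two-sided sign-flip permutation test, p = 0.125, the smallest possible, 0.188 adjusted over 3 pairs). With gates of at least 2 markers the mean was 0.223. Of 54 members 15 were higher and none lower, where 13.8% of all genes were higher and 12.0% lower (median 0.26, against -0.02). In all 4 libraries 52 of 54 members were higher.

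RPS20, of the small subunit's head, was at 7322 and 10026 (E21) and 6997 and 7000 (E28) in myocyte-like cells and at 5042, 6789, 4816 and 5024 in the progenitor-like cells. It was higher by 0.48 (± 0.13 SE, adjusted p = 0.00248) and was called in 17 of 17 alternatives. RPS12 (0.38 ± 0.14, adjusted p = 0.0287), RPLP0 (0.36 ± 0.11, adjusted p = 0.0115) and RPL23 (0.36 ± 0.12, adjusted p = 0.0176) lost the call in 9, 4 and 5 of 17.

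The count of 15 depended on the settings: it was 47 with a gate of at least 2 markers, 38 by DESeq2 and 3 without the library term. It was 9 without E16-ZZ, 6 without E16-DZ, 26 without E18-DZ, 2 without E21-ZZ, 1 without E21-DZ or E28-ZZ and 5 without E28-DZ. Scaled to the members' own UMIs, 2 were higher and 3 lower. Genes of ribosome biogenesis went the other way in this comparison, with 10 of 31 lower and 1 higher (median -0.30), and 7 of 17 translation factors and other TOP genes were higher (median 0.32).

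RPL3L, the paralogue of RPL3 known from mature heart and skeletal muscle, was among the 15 (fitted value 2.34 ± 0.81, adjusted p = 0.0248) on very few molecules. It had 2, 3, 2 and 1 UMIs in the myocyte-like cells of these 4 libraries and 0, 0, 1 and 2 in the progenitor-like cells. The fitted fold thus rests on few counted molecules, and its size is uncertain. Over all libraries RPL3L had 42 UMIs in erythroid-like, 32 in neuron-like, 30 each in epithelial-like and fibroblast-like, 16 in chondrogenic-like, 11 in myocyte-like and at most 8 in any other gate. RPL3L begins 1796 bases downstream of the annotated end of RPS2 on the same strand of chromosome 3 (RPS2 at chr3:39996179-40003110 and RPL3L at chr3:40004907-40016702, Sscrofa11.1). For each 1000 UMIs of RPS2 there were 0.822 UMIs of RPL3L in erythroid-like, 0.478 in neuron-like, 0.180 in sclerotome-like (3 UMIs), 0.176 in myocyte-like and 0.164 in epithelial-like cells, and less in the other gates.

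Neuron-like cells were compared with neural progenitor-like cells in E18-ZZ, E18-DZ and E21-ZZ. The share of UMIs differed by 0.0987 to -4.85 points (mean -2.04, lower in 2 of 3 libraries, exact sign-flip permutation p = 0.500, smallest possible 0.250). The mean was -0.636 without E21-ZZ and -3.11 without E18-ZZ. Of 54 members 3 were lower and none higher, where 7.84% of all genes were lower and 12.3% higher (median -0.20, against 0.13 for all genes). RPL4 was at 777, 784 and 418 in neuron-like and 870, 1129 and 677 in progenitor-like cells of these libraries (-0.46 ± 0.12, adjusted p = 0.00349). RPL21 was at 2252, 2202 and 1443 against 2412, 2423 and 2046 (-0.35 ± 0.13, adjusted p = 0.0461). RPLP2, of the stalk, was the third (-0.41 ± 0.12, adjusted p = 0.00926) and was lower in 2 of 3 libraries. Without E16-DZ 10 were lower and 1 higher, without E21-ZZ 1 was lower, and scaled to the members' own UMIs 5 were lower and 8 higher.

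Chondrogenic-like cells were compared with sclerotome-like cells in the 4 libraries of E18 and E21. The share was higher in chondrogenic-like cells in 4 of 4, by 0.0164 to 0.925 points (mean 0.675, exact sign-flip permutation p = 0.125, the smallest possible). No member passed the test, by edgeR or by DESeq2, where 0.113% of all genes were higher and 0.0647% lower, and 2 members had an unadjusted p under 0.05. Of 54 members 53 were above 0 (median 0.15, against 0.08 for all genes), 35 of them in all 4 libraries.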

How the data were processed

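The authors aligned 10x Chromium 3′ reads to Sscrofa11.1 with the Ensembl 98 annotation and deposited Cell Ranger UMI counts, neither normalized nor corrected for free RNA. Cells with at least 200 genes, at most 30000 UMIs and at most 10% mitochondrial UMIs were kept. Scrublet (scanpy 1.11.5) scored doublets, and the highest scores were removed, 0.8% per 1000 barcodes. UMIs were summed per library, or per gate and library with at least 20 cells, and tested with edgeR 4.0.16 (R 4.3.3) after its filterByExpr filter on low counts, with TMM scaling and quasi-likelihood fits. Standard errors (SE) are the size of the log2 fold change divided by the square root of its F statistic. Libraries were the replicates. Shares were tested by exact permutation (scipy 1.17.1). DESeq2 1.42.0, other scalings, filters and gates, and leaving out each library were alternatives, and the code was tested on simulated counts. The share outside hemoglobin genes was added after seeing the data. Members, gene lists and tests were chosen with earlier results of these data known. Genes named are the 5 that rose and the 5 that fell most in each comparison among those past the threshold with 1 direction in both breeds or in every library, the 5 highest and 5 lowest members, and the paralogues with their partners. RPS21, RPL23A, RPL10, RPS28, RPL38, RPLP2 and RPL26L1 were also named, where outside that rule, after their values were seen. Protein sequences were not used here. Some members that the rule names are not reported here, in the text or the figures, but stay in all counts, shares and fits.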

Additional observations from a re-analysis of the deposited data

How the results depend on the processing

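No difference in the share of UMIs passed the test in the main setting or in any alternative run, which shows no stability. With 1 library left out, 3 against 4 cannot go below p = 0.0571 (exact permutation). In the main setting the gate pairs cannot go below p = 0.125 (exact sign-flip permutation). Late minus early over whole libraries, -0.110 points, had no stable sign (-0.669 to 0.641, the highest without the E16 libraries), and neither had the differences in fibroblast-like (-0.770 to 0.428) and neural crest and glia-like cells (-1.26 to 0.287). The other 4 gates and the 3 gate pairs kept their sign, and means of pairs ran from 0.223 to 0.755 (myocyte-like) and from -3.11 to -0.636 (neuron-like). Counts of members called moved as follows. From E16 to E18 DESeq2 called 4, and leaving out 1 library gave 0 to 3. From E18 to E21 a mitochondrial limit of 5% gave 0 and leaving out 1 library 0 to 4. From E21 to E28 leaving out 1 library gave 0 to 2. For myocyte-like against MYF5+ progenitor-like cells the count of 15 became 32 with RLE size factors, 5 scaled to member UMIs, 38 by DESeq2, 6 with no filter, 7 with the mitochondrial limit of 5%, 47 with 2 markers, 3 with no library term and 1 to 26 without 1 library. For neuron-like against neural progenitor-like cells 3 became 9 with RLE size factors, 13 scaled to member UMIs, 10 by DESeq2, 11 with the mitochondrial limit, 9 with 2 markers, 0 with no library term and 1 to 11 without 1 library. Within chondrogenic-like cells 9 became 14 by DESeq2, 5 with 2 markers and 3 to 19 without 1 library. Scaled to member UMIs, 19 became 5 in endothelial-like, 5 became 12 in fibroblast-like, 4 became 8 in neural crest and glia-like and 26 became 6 in neuron-like cells, and DESeq2 gave 13 in fibroblast-like cells. Leaving out 1 library gave 6 to 23, 3 to 16, 2 to 14 and 2 to 32 in these 4 gates and 0 to 1 in erythroid-like cells. The cause of these moves was not tested, except that scaling to member UMIs sets the members' median near 0 by construction. Among single genes named by a test, no fold change reversed in any alternative. The fit with a block by replicate number was not made: the labels carry no replicate numbers. Libraries of 1 stage were paired by breed, and gates by library, as the tests state. Each stage and breed has 1 library, and UMI counts limit the values of RPL3L.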

Other observations

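The 55 symbols do not hold every ribosomal protein gene of the files. Ensembl names in a reference table pair 7 further features without a symbol with RPLP1, RPL14, RPS7, RPS27A, RPS29, RPL36A and RPS24, and RPLP1 alone had 3437300 UMIs, more than any of the 55. With these and with RPSA and RPL36AL, 64 genes held 23.6% and 23.7% of the UMIs at E16 (ZZ before DZ), 21.7% and 22.3% (E18), 20.9% and 24.8% (E21), then 23.5% and 22.0% (E28), with E21 again at both ends.

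The share also went with depth. When the cells of a library were cut into 4 equal groups by UMIs, the group with the fewest UMIs had a higher share than the group with the most in 7 of 8 libraries. The values were 22.2% against 19.3% in E16-ZZ, 22.5% against 19.6% in E16-DZ, 19.2% against 18.0% in E18-ZZ and 18.3% against 16.8% in E21-ZZ. The other ones were 20.7% against 20.4% in E21-DZ, 19.8% against 19.3% in E28-ZZ and 18.7% against 18.1% in E28-DZ, while E18-DZ had 18.8% against 18.9%. Median UMIs per cell were 6160.5 and 5105.5 at E16, 5792.5 and 4651.5 (E18), 3779.5 and 4519 (E21), then 3906 and 3405 (E28). Every early library was thus deeper than every late one. The part of this in the comparisons of late with early libraries was not tested.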
